A study of Mus musculus with 9 samples.

Results

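Accessible chromatin around the genes of the 4 reprogramming factors, Pou5f1 (Oct4), Sox2, Klf4 and Myc, was followed through the conversion of mouse fibroblasts into induced pluripotent stem cells. ATAC-Seq peaks of 9 libraries were joined where they overlapped, which gave 210151 regions on chromosomes 1 to 19, X and Y. A region was taken as a member if it lay within 150 kb of one of the genes and overlapped no exon of it, and for Pou5f1 also if it did not touch the stretch from 8.98 kb before the gene to 5.28 kb behind it on chromosome 17 (mm9). This rule gave 148 members, of which 51 surrounded Pou5f1, 36 Sox2, 28 Klf4 and 33 Myc. Another 8 regions over exons of the genes were left out, because the retroviral vectors carry copies of these coding sequences. They were 1 each for Pou5f1 and Sox2 and 3 each for Klf4 and Myc. The rule for the Pou5f1 interval left out 1 more region, which overlapped no exon of the gene.

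The cells were mouse embryonic fibroblasts (MEFs) from mid-gestation embryos that carry an EGFP reporter behind the stop codon of the endogenous Oct4 gene, a modification that all groups share. D0 denotes MEFs before infection. For D3, D6T-, D9T-, D12S+ and D16S+, MEFs were infected with pMXs retroviruses for Oct4, Sox2, Klf4 and c-Myc and kept without feeder cells for 3, 6, 9, 12 and 16 days. D3 was not sorted, T- denotes Thy-1-negative cells, S+ denotes SSEA-1-positive cells, and the iPSCs library came from reprogrammed cells. D6 siH3.3 and D6 siNT are day 6 cells infected with the same retroviruses. They had also been transfected with siRNA against the histone variant H3.3 or with a non-targeting siRNA. The study places this knockdown at the beginning of reprogramming, and its methods time early transfection before the infection. The labels give a Thy-1-negative sort for D6 siH3.3 and D6 siNT, while the list of libraries that accompanies the study gives no sort for them. Each condition had 1 library, so no difference below has a replicate check and none was tested. In such bulk libraries a larger share of cells with an open region and a wider opening in each cell cannot be told apart.

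OCT4, SOX2, KLF4 and MYC are transcription factors that convert fibroblasts to pluripotency when they are supplied together, and the endogenous genes are later switched on from their own chromatin. Much of that control lies outside the coding sequence: a distal cluster of enhancers far downstream of Sox2 and another downstream of Klf4 are known to drive these genes in mouse embryonic stem cells, and Myc sits in a gene-poor stretch with scattered distal enhancers. The known proximal and distal enhancers of Pou5f1 lie close upstream of the gene, inside the interval left out here. Early in reprogramming, open fibroblast sites are known to carry AP-1, TEAD and RUNX motifs, while pluripotency enhancers are known for OCT4-SOX2, KLF and ESRRB motifs.

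Members are named by the gene and the distance of the midpoint of the region from its transcription start site, so that Sox2+111.3kb lies 111.3 kb downstream and Sox2-124.0kb lies 124.0 kb upstream. The sequences below are 300 bp around the strongest summit of 9 members on the plus strand of mm9. They show members open only late or highest late (Sox2+111.3kb, Sox2+108.0kb, Klf4+54.7kb, Myc+107.4kb), a member called in iPSCs alone (Pou5f1-20.1kb), and members open early or highest at D6T- (Sox2-124.0kb, Klf4-46.6kb, Myc+93.9kb, Pou5f1+63.4kb). Capitals mark every match, on either strand, to the POU octamer ATGCAAAT, the OCT4-SOX2 core TTGTNATGC, SOX CATTGT, KLF GGGNGTGG, the MYC E-box CACGTG, AP-1 TGANTCA, TEAD CATTCCA, RUNX TGTGGTT, ESRRB TCAAGGTCA or CTCF CCANNAGGG. The windows were chr3:34660204-34660503 and chr3:34656802-34657101 for the late Sox2 members, chr4:55490326-55490625 for Klf4+54.7kb and chr15:61924359-61924658 for Myc+107.4kb. The remaining windows were chr17:35622725-35623024, chr3:34424737-34425036, chr4:55591731-55592030, chr15:61910866-61911165 and chr17:35706232-35706531, in the order given above. None of the 9 regions overlapped an annotated exon or the 3 kb upstream of another gene (GENCODE vM1).
Sox2+111.3kb: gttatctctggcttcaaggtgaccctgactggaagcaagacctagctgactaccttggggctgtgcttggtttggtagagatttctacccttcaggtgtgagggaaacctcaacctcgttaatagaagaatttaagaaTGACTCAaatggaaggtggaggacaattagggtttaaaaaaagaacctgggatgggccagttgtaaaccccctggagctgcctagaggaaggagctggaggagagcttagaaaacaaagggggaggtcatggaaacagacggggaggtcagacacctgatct
Sox2+108.0kb: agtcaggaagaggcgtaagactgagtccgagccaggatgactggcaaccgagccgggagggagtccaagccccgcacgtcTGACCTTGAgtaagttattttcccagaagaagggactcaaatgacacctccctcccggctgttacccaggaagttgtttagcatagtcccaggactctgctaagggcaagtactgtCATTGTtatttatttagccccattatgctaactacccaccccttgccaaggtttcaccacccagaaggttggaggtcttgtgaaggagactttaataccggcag
Klf4+54.7kb: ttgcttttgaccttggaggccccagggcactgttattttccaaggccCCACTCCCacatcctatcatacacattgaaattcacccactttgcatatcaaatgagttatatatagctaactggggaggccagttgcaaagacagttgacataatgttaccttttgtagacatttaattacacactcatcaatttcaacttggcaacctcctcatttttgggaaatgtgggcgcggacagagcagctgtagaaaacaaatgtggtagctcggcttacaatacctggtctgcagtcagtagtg
Myc+107.4kb: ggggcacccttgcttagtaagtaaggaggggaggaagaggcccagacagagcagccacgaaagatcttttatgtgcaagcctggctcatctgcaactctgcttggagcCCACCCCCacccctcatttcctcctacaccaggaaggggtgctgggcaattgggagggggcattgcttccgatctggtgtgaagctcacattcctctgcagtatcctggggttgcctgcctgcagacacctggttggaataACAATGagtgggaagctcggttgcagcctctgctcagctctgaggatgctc
Pou5f1-20.1kb: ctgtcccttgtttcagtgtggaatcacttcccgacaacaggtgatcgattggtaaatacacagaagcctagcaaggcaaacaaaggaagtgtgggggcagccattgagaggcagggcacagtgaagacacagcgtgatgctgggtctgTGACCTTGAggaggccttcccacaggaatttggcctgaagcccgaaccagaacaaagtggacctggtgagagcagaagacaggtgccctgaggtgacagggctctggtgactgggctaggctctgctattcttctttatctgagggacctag
Sox2-124.0kb: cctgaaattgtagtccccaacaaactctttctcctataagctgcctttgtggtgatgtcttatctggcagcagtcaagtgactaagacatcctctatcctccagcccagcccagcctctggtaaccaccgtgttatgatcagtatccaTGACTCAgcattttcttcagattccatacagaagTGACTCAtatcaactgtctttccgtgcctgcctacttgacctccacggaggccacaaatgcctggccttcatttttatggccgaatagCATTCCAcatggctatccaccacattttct
Klf4-46.6kb: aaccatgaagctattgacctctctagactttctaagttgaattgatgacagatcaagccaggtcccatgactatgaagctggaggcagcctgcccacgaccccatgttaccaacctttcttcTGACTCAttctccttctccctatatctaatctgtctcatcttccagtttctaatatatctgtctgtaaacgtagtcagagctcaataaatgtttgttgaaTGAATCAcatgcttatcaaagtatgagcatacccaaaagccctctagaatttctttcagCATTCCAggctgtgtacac
Myc+93.9kb: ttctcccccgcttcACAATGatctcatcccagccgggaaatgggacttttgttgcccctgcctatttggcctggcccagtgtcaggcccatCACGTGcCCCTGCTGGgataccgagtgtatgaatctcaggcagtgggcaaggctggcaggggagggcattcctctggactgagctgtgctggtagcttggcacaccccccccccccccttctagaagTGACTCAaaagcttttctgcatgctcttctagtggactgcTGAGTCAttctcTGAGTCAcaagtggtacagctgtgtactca
Pou5f1+63.4kb: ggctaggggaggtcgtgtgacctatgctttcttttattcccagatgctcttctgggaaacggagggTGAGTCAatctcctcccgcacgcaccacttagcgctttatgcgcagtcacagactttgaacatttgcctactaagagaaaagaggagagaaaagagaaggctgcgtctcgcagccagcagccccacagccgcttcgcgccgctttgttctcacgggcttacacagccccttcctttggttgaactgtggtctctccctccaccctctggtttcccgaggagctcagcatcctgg

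Among these windows, Sox2-124.0kb and Klf4-46.6kb each held 2 AP-1 matches and 1 TEAD match, and Myc+93.9kb held 3 AP-1 matches. The ESRRB match of Pou5f1-20.1kb began 2 bp before its summit, and Sox2+108.0kb held an ESRRB match and a SOX match. Myc+107.4kb held a KLF match 42 bp before the summit and a SOX match. Sox2+111.3kb held no match but an AP-1 one, 12 bp before its summit. A match is a description of the letters and does not show that a factor bound there.

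Libraries held from 13213117 (D9T-) to 31714845 (D0) tags. The level of a member in a library is the highest pileup of its peaks, a count of the extended tags (200 bp) that overlie the summit, divided by the total tags of the library and given as CPM (per 1000000 tags). The weakest peaks called had 0.331 CPM at D3 and 0.53 at D9T-, the ends of the range over libraries, and since the peaks were called without a local background, a region not called lay below about that level and weaker openings were not detectable at this depth. D6T- stood apart: over the regions called in all 9 libraries its median level was 3.41 CPM, against 0.883 at D0 and 1.05 in iPSCs, and no more than 2.1 in any other library. The part of this difference in the results below was not tested. Peaks at 7 fibroblast markers followed the labels only in part. All 7 were called at D0 and 5 in iPSCs, with summed levels of 5.77 and 3.39, and Col1a1, Twist1, Twist2, Prrx1 and Thy1 still had a peak in iPSCs. Of 7 pluripotency markers 2 were called at D0 and 7 at D16S+ and in iPSCs, with summed levels of 1.23, 11 and 7.41, and Nanog and Zfp42 had no peak before D12S+.

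The share of members with a called peak lay below that of all regions up to D9T- and above it from D12S+ on. At D0, 38 of the 148 members (25.7%) had a called peak, against 36.5% of all joined regions. The shares were 44.6% and 48.2% at D3, 50.7% and 61.7% at D6T-, and 14.2% and 16% at D9T-. In the late libraries the values were 30.4% of members and 25% of all regions at D12S+, 31.8% and 22.3% at D16S+, and 44.6% and 27% in iPSCs. Both siRNA libraries called 20 members each (13.5%), against 20.6% (D6 siH3.3) and 20.2% (D6 siNT) of all regions. With 1 library a condition these shares have no replicate error.

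**Figure D1:**
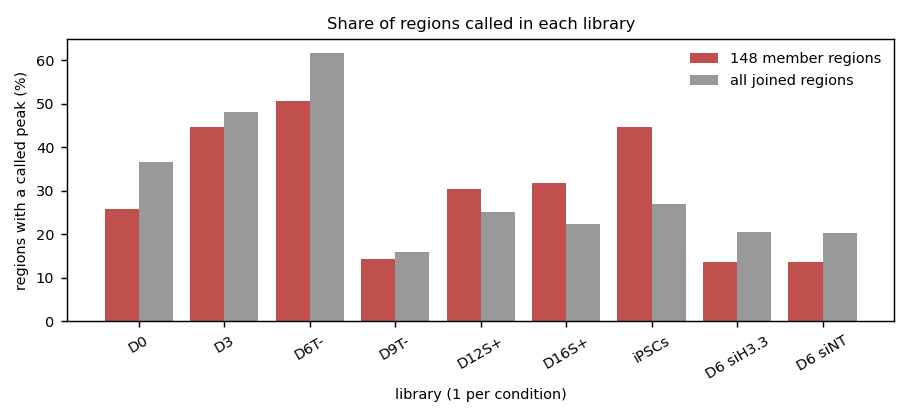
Share of regions with a called peak (%) in each of the 9 libraries, for the 148 members (red) and all 210151 joined regions (grey). The members lie below all regions up to D9T- and in both siRNA libraries, and above them at D12S+, D16S+ and in iPSCs.

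The 4 genes contributed unequally to this. Around Pou5f1, 10 members were called at D0 and 29 in iPSCs, the largest number for any gene and library, and 14 of these 29 were called in iPSCs alone. Around Sox2 the numbers were 10 and 14, around Klf4 8 and 8, and around Myc 10 and 15, with 2, 1 and 7 members called in iPSCs alone. The counts called in iPSCs alone have no share over all regions beside them, so they are a description only. Pou5f1 lies among many genes, and 27 of its 51 members overlapped an exon or the 3 kb upstream of another gene, against 6 for Sox2, 6 for Klf4 and 1 for Myc. Few members were open throughout: 4 (2.7%) were called in all 9 libraries, against 5.86% of all regions, and 63 (42.6%) were called in 1 library, against 46.5%.

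The overlap of D0 with iPSCs was a smaller share of the iPSCs list than over all regions, and a like share of the D0 list. The D0 and iPSCs libraries shared 12 members, 31.6% of those called at D0 and 18.2% of those called in iPSCs, while over all regions the shares were 27.6% and 37.3%. D16S+ and iPSCs shared 33 members, 70.2% and 50% of their lists, against 71.6% and 59% over all regions. D0 and D3 shared 26 members, 68.4% and 39.4%, against 62.8% and 47.5%.

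**Figure D2:**
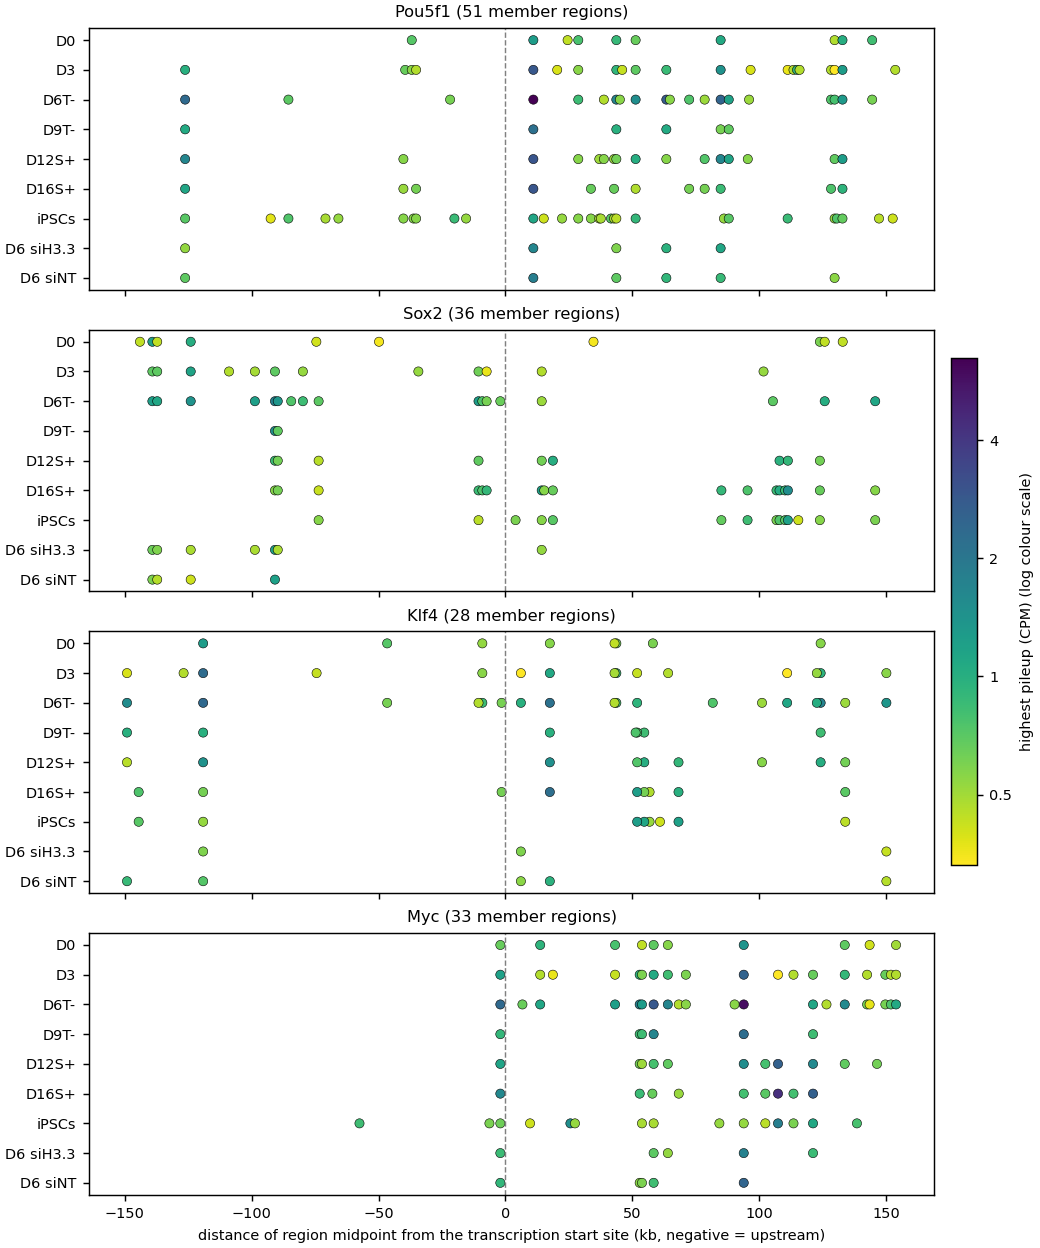
Positions of the 148 members around each gene (x axis, distance of the midpoint from the transcription start site in kb, in the direction of transcription) in each of the 9 libraries (y axis). Each point is a called peak and its colour is the highest pileup in CPM on a log scale. Downstream of Sox2, the 6 late-only members from 85.1 to 111.3 kb have points at D16S+ and iPSCs, and those at 108.0 and 111.3 kb also at D12S+. They have points in no other library, and 1 member of D3 and 1 of D6T- lie among them. The members at 139.1, 137.2 and 124.0 kb upstream have points at D0, D3, D6T- and in both siRNA libraries.

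To describe the switch, a region was called late-only if at least 2 of D12S+, D16S+ and iPSCs called it and none of D0, D3, D6T- and D9T- did. It was called early-only if at least 2 of D0, D3 and D6T- called it and none of the 3 late libraries did. Of the 148 members 15 (10.1%) were late-only, against 4.25% of all regions seen in the time course, and 24 (16.2%) were early-only, against 19%. Sox2 held 7 of the late-only members, Pou5f1 4, Klf4 3 and Myc 1. Klf4 and Myc held 8 early-only members each, Sox2 6 and Pou5f1 2. None of the 15 late-only members was called in a siRNA library, against 1.4% of all late-only regions, and 6 of the 24 early-only members (25%) were called in at least 1 of them, against 28.3% of all early-only regions.

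The Sox2 members were divided by side. All 7 late-only members lay downstream, among 18 downstream members, and 5 of the 6 early-only members lay upstream, among 18 upstream members. Sox2+111.3kb was called at 0.908 CPM at D12S+, 1.51 at D16S+ and 1.2 in iPSCs (16, 32 and 32 tags), and in no other library. Its exact Poisson 95% intervals, which cover counting error only, were 0.519 to 1.48, 1.03 to 2.13 and 0.823 to 1.7 CPM, and they overlap one another. Sox2+108.0kb behaved in the same way, with 0.965, 1.04 and 0.752 CPM in these 3 libraries. Their neighbours Sox2+106.8kb and Sox2+110.2kb, and Sox2+85.1kb and Sox2+95.4kb nearer to the gene, were called at D16S+ and in iPSCs, at levels from 0.602 to 0.897 CPM. Closer still, Sox2+18.7kb stood at 1.02 at D12S+, 0.661 at D16S+ and 0.715 in iPSCs. This group covers the distance at which the distal enhancer cluster of Sox2 is known.

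Upstream of Sox2 the 5 early-only members lay between 139.1 and 79.8 kb from the start site. Sox2-139.1kb had 1.2 CPM at D0, 0.695 at D3 and 1.22 at D6T-, 0.643 in D6 siH3.3 and 0.597 in D6 siNT, and no peak in D9T-, D12S+, D16S+ and iPSCs. Sox2-124.0kb, whose sequence with 2 AP-1 matches is given above, stood at 1.01, 1.16 and 1.4 at D0, D3 and D6T- and at 0.482 and 0.413 in D6 siH3.3 and D6 siNT. It too had no peak in D9T-, D12S+, D16S+ and iPSCs. D9T- is the shallowest library and called 2 Sox2 members in all, so the lack of a peak there could not be told from lack of depth. Sox2-90.8kb, at the promoter of the noncoding RNA gene Sox2ot that spans Sox2, was highest at D6T- (1.82) and D9T- (1.51) and was called neither at D0 nor in iPSCs. Relative to the median of the regions called in all libraries it stood at 0.534 times at D6T- and 1.11 at D9T-. In D6 siH3.3 and D6 siNT it stood at 0.917 and 1 times that median. Not all upstream members were early-only: Sox2-73.6kb and Sox2-10.6kb were called in all 3 late libraries and not at D0. In CPM both were highest at D6T-, at 0.701 and 1.26, against 0.564 and 0.451 in iPSCs. The median of the regions called in all libraries was 3.41 at D6T- and 1.05 in iPSCs. Relative to that median both members were lower at D6T- than in iPSCs. Sox2-9.1kb and Sox2-7.4kb were highest at D16S+ (0.756 and 0.897) and were also called at D6T- (0.748 and 0.608).

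Around Klf4, 2 of the 3 late-only members lay downstream, and Klf4-144.5kb, called at D16S+ (0.756) and in iPSCs (0.715), lay upstream. Klf4+68.2kb was called at 0.908 CPM at D12S+, 0.992 at D16S+ and 1.2 in iPSCs (16, 21 and 32 tags), and nowhere else. Klf4+54.7kb was first called at D9T- (0.833) and stood at 1.02, 0.614 and 1.13 in the 3 late libraries. Klf4+51.9kb was called from D3 on, at 0.43, 0.935, 0.757, 0.738, 1.23 and 1.24 CPM up to iPSCs, and in neither D0 nor a siRNA library. These 3 members lie where the downstream enhancer cluster of Klf4 is known. Klf4+17.5kb took another course: its levels from D0 to D16S+ were 0.568, 1.09, 2.15, 0.984, 1.48 and 2.22, and it was not called in iPSCs. The median of the regions called in all libraries itself rose from 0.883 at D0 to 1.98 at D3 and 3.41 at D6T-. Relative to that median Klf4+17.5kb stood at 0.722 times at D9T-, 0.703 at D12S+ and 1.12 at D16S+. On the upstream side Klf4-119.1kb, called in all 9 libraries, was highest at D6T- (2.38) and D3 (2.28) and lowest in iPSCs (0.527). Relative to the median of the regions called in all libraries the order was the other way, with 1.43 times at D0, 1.15 at D3 and 0.699 at D6T-. Its interval in iPSCs, 0.288 to 0.884, lay below those at D0 (0.901 to 1.72) and D3 (1.78 to 2.89).

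**Figure D3:**
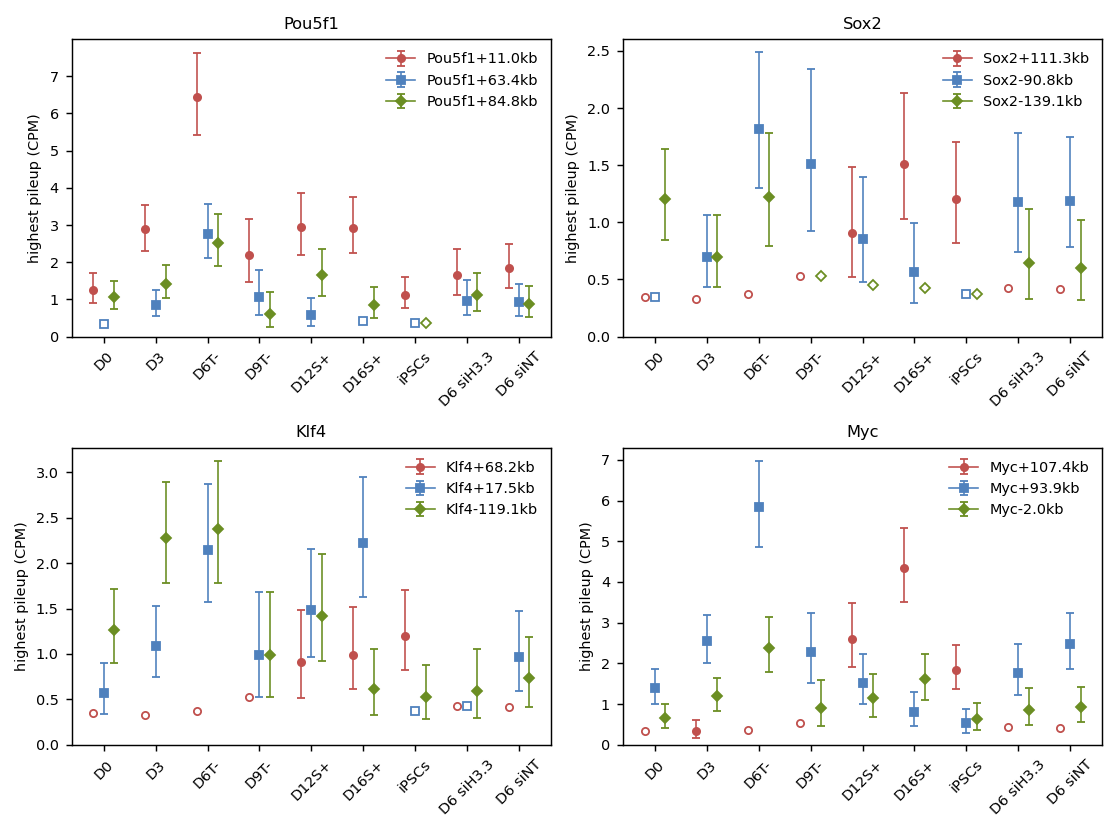
Highest pileup in CPM (y axis) of 3 members of each gene in the 9 libraries (x axis). Bars are exact Poisson 95% intervals of the tag number, and open symbols mark libraries without a called peak, drawn at the lowest level called there. Myc+107.4kb reaches 4.35 at D16S+ while Myc+93.9kb reaches 5.84 at D6T- and 0.527 in iPSCs, and Sox2+111.3kb has filled symbols in D12S+, D16S+ and iPSCs.

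Around Myc, 30 of the 33 members lay downstream, on the side of the noncoding RNA gene Pvt1, and a pair of neighbours there had opposite courses. Myc+93.9kb was called in every library, and its 7 levels in the order of the time course were 1.39, 2.55, 5.84, 2.27, 1.53, 0.803 and 0.527 CPM. In CPM it was highest at D6T-, where 125 tags gave an interval of 4.86 to 6.96, and lowest in iPSCs, where 14 tags gave 0.288 to 0.884. Relative to the median of the regions called in all libraries its levels from D0 to D9T- were closer together, at 1.57, 1.28, 1.71 and 1.67 times. In D6 siNT and D6 siH3.3 it stood at 2.08 and 1.37 times that median. Myc+107.4kb was not called at D0, D6T- or D9T- or in the siRNA libraries, stood at 0.331 at D3 on 10 tags, and reached 2.61 at D12S+, 4.35 at D16S+ and 1.84 in iPSCs. Its 92 tags at D16S+ gave an interval of 3.5 to 5.33. Further downstream Myc+121.2kb was also highest at D16S+ (2.64) and was not called at D0 or in D6 siNT. Nearer to the gene Myc+58.4kb was highest in CPM at D6T- (2.9). Myc-2.0kb, close to the promoter of Myc, was called in all 9 libraries between 0.64 CPM (iPSCs) and 2.38 (D6T-). Relative to the median of the regions called in all libraries, Myc+58.4kb was higher at D9T- than at D6T-. On that scale Myc-2.0kb was higher at D16S+ than at D6T-. Myc+25.6kb was called in iPSCs alone, at 1.5 CPM on 40 tags.

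The strongest Pou5f1 member lay at other genes. Pou5f1+11.0kb, which overlaps exons and promoters of Tcf19 and Cchcr1, was called in all 9 libraries, with 6.45 CPM at D6T- as its highest level, 2.95 at D12S+ and 2.93 at D16S+, and with its lowest levels at D0 (1.26) and in iPSCs (1.13). It led the Pou5f1 members in every library. Relative to the median of the regions called in all libraries, its level lay between 1.07 times (iPSCs) and 1.89 times (D6T-), a narrower range than that of the raw levels. Members away from other genes were weaker. Pou5f1+63.4kb was called from D3 (0.86) to D12S+ (0.568) with its highest level at D6T- (2.76), and in neither D0, D16S+ nor iPSCs. Pou5f1+84.8kb was called in every library but iPSCs, between 0.605 CPM at D9T- and 2.52 at D6T-. Relative to the median of the regions called in all libraries, Pou5f1+84.8kb was highest at D0 (1.07 CPM). The 14 members called in iPSCs alone were weak, and the highest of them, Pou5f1-20.1kb, stood at 0.865 CPM.

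Other members of the early-only and late-only sets had levels of up to 1.36 CPM, the value of Klf4+150.1kb at D6T-. Around Klf4, Klf4+43.7kb stood at 0.631 CPM at D0, 0.86 at D3 and 0.795 at D6T-, and Klf4-9.1kb at 0.536, 0.562 and 0.841. Klf4-46.6kb, shown above with 2 AP-1 matches, was called at D0 (0.725) and D6T- (0.608) only. Around Myc, Myc+13.7kb was at 0.946, 0.463 and 1.12 and Myc+43.2kb at 0.788, 0.43 and 1.22 in these 3 libraries, each lowest at D3. The 5 early-only members from Myc+142.5kb to Myc+153.9kb had levels from 0.374 to 1.08. The late-only members of Pou5f1 did not exceed 0.661 CPM, and of them Pou5f1-40.2kb (0.568, 0.52 and 0.564) and Pou5f1+42.8kb (0.511, 0.661 and 0.489) were called in all 3 late libraries. The median width of the joined regions was 330 bp for Pou5f1, 402 bp for Sox2, 431 bp for Klf4 and 481 bp for Myc.

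The comparison of D0 with iPSCs asks how the surroundings differed between the start and the end point. Of the 92 members called in at least 1 of both libraries, 21 (22.8%) were at least 2-fold higher in iPSCs, against 9.72% of all regions so compared, and 8 (8.7%) were at least 2-fold lower, against 10.5%. Where a library had no peak the fold was taken to its lowest called level and is a lower bound. This holds for all 21 higher members, none of which had a peak at D0. The 12 members called in both libraries had a median fold of 0.805 in iPSCs over D0, against 1.19 over all regions called in both. Each of the 4 genes contributed to the higher members, 7 for Pou5f1, 5 each for Sox2 and Myc, and 4 for Klf4. Regions called in all libraries had a median 1.23-fold higher in iPSCs, and after scaling by it 9 members (9.78%) were higher, against 4.89% of all regions, and 13 (14.1%) lower, against 17.2%.

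The largest folds upward belonged to Myc. Myc+107.4kb was at least 5.31-fold higher in iPSCs than at D0, or 4.31-fold after scaling by the shared regions, and Myc+25.6kb at least 4.34-fold, or 3.52-fold. Klf4+51.9kb followed at 3.58-fold, and Klf4+68.2kb and Sox2+111.3kb at 3.47-fold, or 2.9-fold and 2.81-fold after scaling, all as lower bounds. In the other direction Sox2-139.1kb was at least 3.18-fold lower and Sox2-124.0kb at least 2.68-fold. Pou5f1+84.8kb was at least 2.85-fold lower in iPSCs. Myc+93.9kb and Klf4-119.1kb, called in both libraries, were 2.63-fold and 2.39-fold lower, and stood at 0.308 and 0.339 times their D0 level after scaling.

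**Figure D4:**
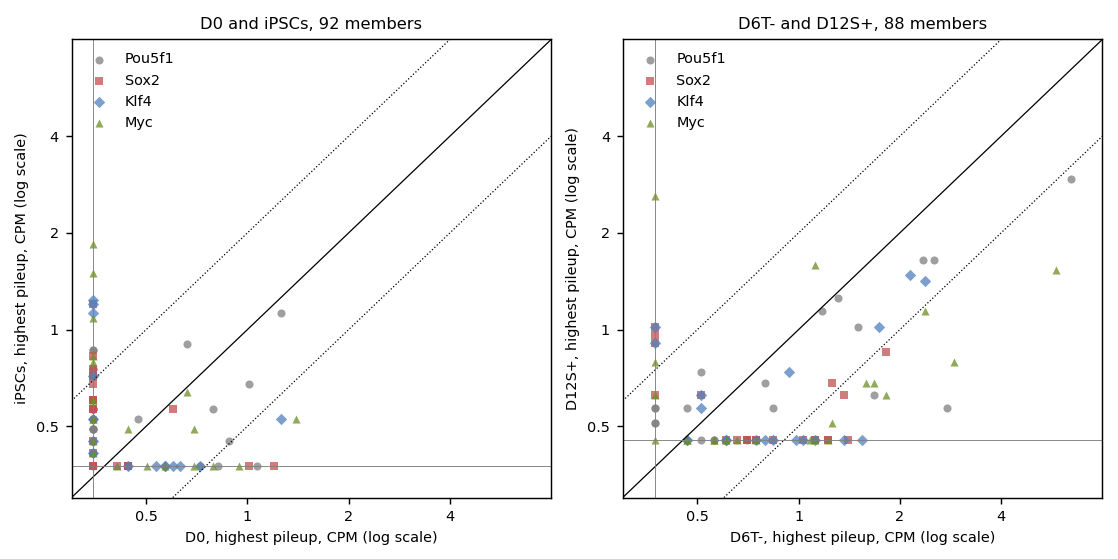
Highest pileup in CPM of each member in D0 (x) and iPSCs (y), left, and in D6T- (x) and D12S+ (y), right, both axes on a log scale. Points on the thin grey lines had no called peak in that library and are drawn at its lowest called level. The solid line marks equal levels and the dotted lines a 2-fold difference. In the left plot 21 of 92 members lie above the upper dotted line and 8 below the lower one, and in the right plot 7 and 26 of 88 do so.

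Between D0 and D3, the first days after infection, few members differed. Of 78 members compared 6 (7.69%) were at least 2-fold higher at D3, against 15.6% of all regions, and 3 (3.85%) were lower, against 2.16%. The 6 higher were Pou5f1-126.2kb, Pou5f1+11.0kb, Pou5f1+63.4kb, Pou5f1+114.9kb, Sox2-90.8kb and Myc+52.9kb, with folds from 2 to 2.86, and those other than Pou5f1+63.4kb overlapped an exon or the promoter of another gene. The 3 lower were Pou5f1+144.5kb, Klf4-46.6kb and Myc+13.7kb. The shared regions were a median 2.31-fold higher at D3, the largest such shift, and after scaling by it no member was higher and 29 (37.2%) were lower, against 0.529% and 40.6% of all regions. The regions over the exons of Sox2, Klf4 and Myc, which were left out, stood at 12.4, 15.6 and 8.37 CPM at D3, while the highest members around these genes were at 1.16, 2.28 and 2.55. At D0 the exon regions stood at 0.441, 0.788 and 0.757. The part of vector copies in the exon values was not tested.

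From D6T- to D12S+, between Thy-1-negative and SSEA-1-positive cells, 7 of 88 members (7.95%) were at least 2-fold higher, against 2.83% of all regions, and 26 (29.5%) were lower, against 29.2%. The shared regions were at 0.619 times their D6T- level at D12S+. After scaling by this shift 15 members (17%) were higher and 4 (4.55%) lower, against 9.05% and 8.48% of all regions. The 7 higher were Sox2+18.7kb, Sox2+108.0kb, Sox2+111.3kb, Klf4+68.2kb, Klf4+54.7kb, Myc+102.4kb and Myc+107.4kb, and none of them had a peak at D6T-. Myc+107.4kb was at least 6.98-fold higher, or 11.3-fold after scaling, and the other 6 at least 2.13 to 2.73-fold, or 3.44 to 4.42-fold. No member around Pou5f1 was among them. Pou5f1+63.4kb was 4.86-fold lower, Myc+93.9kb 3.81-fold and Myc+58.4kb 3.65-fold, and after scaling they stood at 0.333, 0.424 and 0.443 times their D6T- level.

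The siRNA libraries, collected at day 6, left few members to compare. Both libraries together called 25 members, of which 15 were shared, 75% of each list, against 77.8% of the D6 siNT regions and 76.3% of the D6 siH3.3 regions over the genome. In D6 siH3.3 1 member (4%) was at least 2-fold higher than in D6 siNT, against 2.21% of all regions, and 2 (8%) were lower, against 0.907%. The higher one was Myc+121.2kb, called at 0.857 CPM in D6 siH3.3 on 16 tags and not in D6 siNT. The lower ones were Klf4+17.5kb, at 0.964 in D6 siNT on 21 tags, and Klf4-149.1kb, at 0.872 on 19 tags, both without a peak in D6 siH3.3. These 3 rest on bounds of 2.04 to 2.25-fold and on few tags. After scaling by the shared regions, whose median was 1.04 times as high in D6 siH3.3, Myc+121.2kb came to 1.99-fold and no longer passed. Myc+93.9kb stood at 2.48 in D6 siNT and 1.77 in D6 siH3.3, with intervals of 1.86 to 3.23 and 1.22 to 2.48 that overlap. Sox2-90.8kb was at 1.19 and 1.18, and Pou5f1+11.0kb at 1.84 and 1.66.

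Sequence was a feature that the rule did not use. The 300 bp around the summit held the AP-1 motif in 12 of 24 early-only members (50%) and in 3 of 15 late-only members (20%). Over all regions of the same kinds the shares were 50.6% and 7.7%, and over all regions 28.1%, so the early-only members were like other early-only regions. By gene, 4 of 6 early-only members of Sox2, 4 of 8 of Klf4, 3 of 8 of Myc and 1 of 2 of Pou5f1 held it. RUNX matches were found in 6 of 24 early-only members (25%) and in no late-only member, against 11.9% and 4.18% of all such regions. No late-only member held the POU octamer or the OCT4-SOX2 core, which were found in 5.46% and 4.6% of all late-only regions, and 15 members are few for a share of that size. KLF matches stood at 17.6% of all members and 13.9% of all regions, MYC E-boxes at 7.43% and 5.28%, SOX at 18.2% and 17.6%, TEAD at 8.78% and 7.06%, CTCF at 8.78% and 7.55%, and ESRRB at 2.03% and 0.639%. The median GC content was 51.7% in members and 49.7% in all regions, and 47.2% in early-only and 51.7% in late-only members.

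Other pluripotency regulators, whose genes the vectors did not carry, were read by the same measure (Nanog, Esrrb, Klf2, Klf5, Tfcp2l1, named Tcfcp2l1 in the annotation, Tbx3, Sall4, Mycn, Prdm14 and Zfp42). Within 150 kb of these 10 genes lay 449 regions outside their exons, and 276 were called at D0 or in iPSCs. Of these, 45 (16.3%) were at least 2-fold higher in iPSCs and 10 (3.62%) lower, against 22.8% and 8.7% of the members. Late-only regions made up 10.8% of those near the 10 genes and 10.1% of the members, and early-only regions 15% and 16.2%. Among single genes the late-only share ran from 0% at Tbx3 to 22.6% at Mycn, and Sox2, at 19.4%, lay near Klf5 (19.2%), Nanog (18.3%) and Prdm14 (18.2%). Myc had the lowest late-only share of the 4 factor genes, 3.03%. Myc+107.4kb was not counted in it because of a D3 peak of 10 tags (0.331 CPM), the lowest level called at D3. Myc+113.5kb, called at D16S+ and in iPSCs, was not counted because of a D3 peak of 14 tags.

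**Figure D5:**
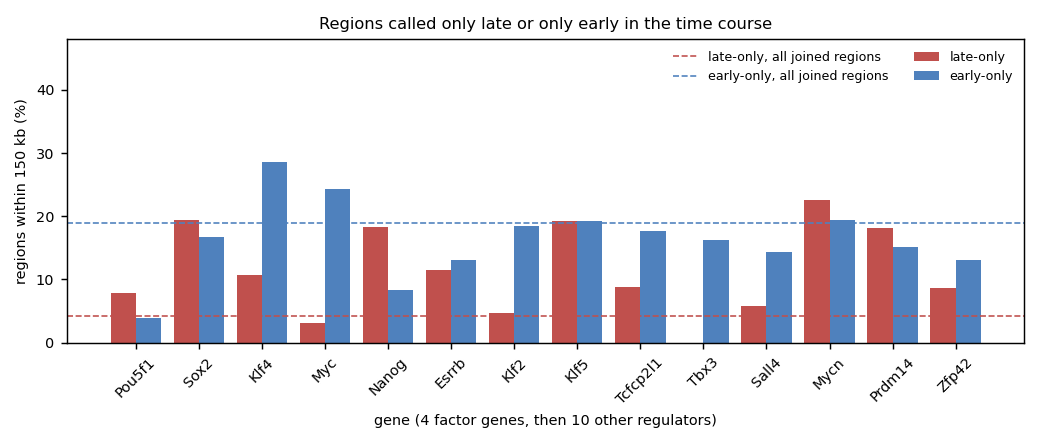
Share of the regions within 150 kb (%) that were late-only (red) or early-only (blue) around each of the 4 factor genes and 10 other regulators. Dashed lines give the shares over all joined regions, 4.25% late-only and 19% early-only. Sox2 (19.4%) and Mycn (22.6%) stand well above the late-only line, and Tbx3 has no late-only region.

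The highest level around each gene was also set beside that of 22217 to 22239 protein-coding genes more than 300 kb away, over the 9 libraries. For Pou5f1 the most alike was Tpd52 (Pearson r = 0.996 on the log2 scale), for Sox2 Ddx60 (0.942), for Klf4 Smad6 (0.952) and for Myc Eed (0.984). These values describe 9 points that share the differences in depth and level between libraries, and the median r over all genes was 0.893 for Pou5f1, 0.459 for Sox2, 0.61 for Klf4 and 0.807 for Myc.

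Regions just inside and just outside the distance of 150 kb were as follows. The member nearest to the limit lay at 148.6 kb (Pou5f1), 143.9 kb (Sox2), 148.8 kb (Klf4) and 148.6 kb (Myc) from the gene, with highest levels of 0.463, 0.441, 1.54 and 1.08 CPM. The first regions outside lay at 153.6, 153.9, 162.3 and 158.5 kb, with 0.397, 4.63, 0.625 and 0.701. The one outside Sox2, called in 7 libraries, was higher than any Sox2 member (1.82), so the limit left out the strongest region nearby.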

How the data were processed

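Peak files of 9 ATAC-Seq libraries, 1 for each condition, were used, with groups taken from the sample labels. Reads of 51 bp were mapped by the authors to mm9 with STAR. They removed duplicates with Picard and called peaks with MACS2 2.1.0.20151222 at a q-value cutoff of 0.05, with tags extended to 200 bp, without a control and without a local background. As deposited, the pileup is a signal that counts extended tags at a summit without scaling for depth. Fold enrichment, also deposited, is the ratio of this signal to an even spread of tags over the genome, and the p-value and q-value were deposited on a −log10 scale.

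From there, overlapping peaks (at least 1 bp) were joined within and then over libraries, and the highest pileup of a region was divided by the total tags of the library and multiplied by 1000000 (CPM). Exons, transcription start sites and the 3 kb promoters came from GENCODE vM1, and sequence from NCBIM37, both mm9. A difference of at least 2-fold was counted, a library without a peak taking its lowest called level, and set beside the share of all joined regions, since 1 library a condition allows no test. Named members were the 3 highest of each gene, the 2 largest rises and falls from D0 to iPSCs, those called in all 9 libraries, and the largest rise and fall between the siRNA libraries. Others named were chosen after their values were seen. The members and lists were chosen with earlier results of these data known, and the late-only and early-only sets after seeing the data. Alternatives were scaling by shared regions, fold enrichment, stricter peaks, equal peak numbers, 50% overlap, 50 kb, no regions at other genes and 1.5-fold. The functions were checked on simulated data (7 tests). Python 3.11.15, numpy 2.4.6, pandas 2.3.3, scipy 1.17.1 and matplotlib 3.10.9 were used. Peaks on other sequences than chromosomes 1 to 19, X and Y were left out.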

Additional observations from a re-analysis of the deposited data

Results flagged for a closer look

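The regions over exons of the 4 genes are no members. In CPM each gene had more signal there in at least 1 library of infected cells than in MEFs before infection. At Pou5f1, however, D9T- (12.2 CPM), D6 siH3.3 (9.37) and D6 siNT (9.64) lay below D0. At Pou5f1 the highest pileup was 26.3 CPM at D16S+, against 13.1 at D0, in a region of 17564 bp that every library called almost whole, D0 included (16594 to 17521 bp covered). The median of the regions called in all libraries was 0.883 CPM at D0 and 1.98 at D16S+. Relative to that median the Pou5f1 region was not higher at D16S+ than at D0. At Sox2 the highest pileup was 12.4 CPM at D3, against 0.441 at D0. At Klf4 it was 15.6 at D3, against 0.788. At Myc it was 8.37 at D3, against 0.757. The part of vector copies in these values was not tested.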

How the results depend on the processing

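No paired analysis was possible because each condition had 1 library. Of 86 values recomputed under other settings, 41 stayed within 1.5 times the value reported and 45 moved, and the cause was not tested beyond the smaller numbers of regions that some settings leave. Counts of members are given as higher and lower, in the order D0 to D3, D6T- to D12S+, D0 to iPSCs and D6 siNT to D6 siH3.3. Scaled by the shared regions they were 0 and 29, 15 and 4, 9 and 13, and 0 and 2. By the deposited fold enrichment they were 5 and 2, 6 and 26, 15 and 8, and 0 and 1. With peaks of −log10 q of at least 5, 93 members were left, with 1 and 0, 1 and 11, 7 and 2, and 0 and 0. With the 39680 strongest peaks of each library 66 were left, with 1 and 0, 0 and 11, 5 and 2, and 0 and 0, and 6 early-only members in place of 24. Within 50 kb 57 were left, with 2 and 2, 2 and 8, 6 and 2, and 0 and 1, and 5 late-only and 8 early-only members. Without regions at other genes D0 to D3 had 1 member higher. At 1.5-fold the counts were 23 and 7, 11 and 42, 40 and 17, and 1 and 2. The share of members higher in iPSCs than at D0 lay above that of all regions under each of these settings, from 9.78% against 4.89% to 43.5% against 25.7%. The share higher at D12S+ than at D6T- did so except with equal peak numbers (0% against 0.128%). With the stricter peaks it was 1.64% against 0.844%. The share higher at D3 than at D0 lay below that of all regions under each setting, as with the stricter peaks (2.38% against 16.1%). An overlap of 50% could change nothing, since each peak lies wholly inside its joined region, and its values are counted among the 41 that stayed. Requiring summits within 250 bp, and the recounts of late-only and early-only members, were added after seeing the data. Late-only members numbered 12 to 15 under the settings other than 50 kb. Folds near 2 rest on few tags and can lie within counting error.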
